A study of Mus musculus with 9 samples.

Results

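The genes described here make, break down, carry and sense retinoic acid. They were chosen by name and comprise the synthetic dehydrogenases Aldh1a1, Aldh1a2 and Aldh1a3, the degrading enzymes Cyp26a1 and Cyp26b1, the binding proteins Crabp1 and Crabp2, and the receptors Rara, Rarb and Rxra. They are 10 of the 53280 genes in the count table, and all 10 also stood in the table of transcript abundances and in the authors' deposited comparison.

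Neural retina of mouse pups at postnatal day 4 was compared between Opn4KO pups, which lack melanopsin, and their Opn4WT littermates. Melanopsin is the photopigment of intrinsically photosensitive ganglion cells, which respond to light before rods and cones do. Both genotypes were born to Opn4+/- parents, were kept under standard lighting of about 300 lux, and were sampled between zeitgeber times 6 and 7. A pool held 4 retinas of 2 animals of the same genotype and gave 1 poly-A library, with 5 Opn4KO pools and 4 Opn4WT pools. The labels do not give sex, strain, the deleted part of Opn4, or which litters shared a pool.

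The libraries held 65.53 to 86.13 M counts (M, mega), above the average number of reads that the labels state for a sample, so a count may be a read end or an alignment and not a fragment. Opn4 had 1.07, 1.82, 1.15, 1.42 and 1.35 CPM (counts scaled to library size) in knockout pools 1 to 5, against 11.8, 11.4, 12.0 and 11.6 CPM in wildtype pools 1 to 4, so the libraries matched their labels. All 12 markers of neural retina were detected. Knockout pools 1 and 2 held the most lens transcripts, with a summed level of 23.1 and 19.6 CPM over 11 lens genes, against 9.82 to 12.5 CPM in the other pools. They also had the lowest summed level of progenitor and cell cycle genes and the highest of rod genes, given below. Red blood cell transcripts were lower in every knockout pool than in any wildtype pool, with 22.5 to 28.4 CPM of the globin gene Hbb-bs in knockout and 34.01 to 101 CPM in wildtype, most in wildtype pool 3. Values of the 10 genes and of Cyp26c1 that rest on these pools are also given without them.

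Retinoic acid is made from vitamin A: retinol is oxidised to retinal, and ALDH1A enzymes oxidise retinal to retinoic acid. CYP26 enzymes hydroxylate and so inactivate it, CRABP proteins bind it in the cytoplasm, and heterodimers of retinoic acid receptors (RAR) with retinoid X receptors (RXR) bind DNA at paired hexamers and regulate transcription in response to it. In the embryonic mouse eye Aldh1a1 marks dorsal and Aldh1a3 ventral retina, while Cyp26 enzymes lie in a band between them that is poor in retinoic acid. Rarb and Cyp26a1 are classical targets, each with a retinoic acid response element near its start, so the pathway feeds back on its own receptor and its own degradation.

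The promoters of these targets are shown because they carry that element. In RefSeq promoter windows (GRCm38.p6, 250 bases before to 50 bases after a start), 8 of the 10 genes had 13 windows, with none listed for Aldh1a3 and Crabp2. Capitals mark a direct repeat of the hexamer that retinoid receptors bind, with a spacer of 5 bases (DR5), searched on both strands. The sequences run 5′ to 3′ on the strand of the gene, for Rarb from chr14:16575427-16575726 (minus strand) and for Cyp26a1 from chr19:37697558-37697857 (plus strand).
Rarb: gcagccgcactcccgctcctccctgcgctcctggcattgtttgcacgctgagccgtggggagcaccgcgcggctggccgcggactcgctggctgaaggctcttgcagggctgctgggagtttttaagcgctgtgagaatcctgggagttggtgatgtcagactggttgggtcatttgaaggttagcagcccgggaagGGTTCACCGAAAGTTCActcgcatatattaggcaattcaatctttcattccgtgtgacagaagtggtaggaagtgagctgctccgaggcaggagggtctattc
Cyp26a1: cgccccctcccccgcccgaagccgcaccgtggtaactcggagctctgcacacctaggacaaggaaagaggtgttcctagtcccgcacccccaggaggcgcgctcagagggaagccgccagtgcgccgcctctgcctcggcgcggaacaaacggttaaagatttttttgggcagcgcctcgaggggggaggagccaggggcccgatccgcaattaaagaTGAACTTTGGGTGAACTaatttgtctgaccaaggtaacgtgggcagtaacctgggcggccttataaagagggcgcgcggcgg
The Rarb match lay at positions -53 to -37 from the start on the strand shown. The Cyp26a1 match lay at -32 to -16 on the opposite strand, on which it reads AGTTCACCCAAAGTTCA and the Rarb match reads, on its own strand, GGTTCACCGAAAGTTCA. Among all promoter windows 32 of 32851 held such a repeat (0.0974%), and among the windows of the 10 genes only these did. The repeat with a spacer of 2 bases (DR2), present in 88 windows (0.268%), occurred in none of the 13. A match is a run of letters and does not show binding.

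Per transcript length, the carrier Crabp1 stood far above the enzymes and receptors in both genotypes. Its level, in TPM (abundance relative to transcript length and sequencing depth, summed over the transcripts of a gene), ranged from 298 to 454 over all pools. Aldh1a1 came next at 38.9 to 53.9 TPM, followed by Rara at 28.3 to 34.8 TPM and Rxra at 23.8 to 27.6 TPM. The ranges of these genes over the pools did not overlap one another. Cyp26a1 (8.60 to 18.6 TPM), Crabp2 (7.95 to 15.2 TPM) and Rarb (6.17 to 10.7 TPM) overlapped in range and had no clear order. Below them stood Aldh1a3 at 2.32 to 5.57 TPM, Cyp26b1 at 0.635 to 1.34 TPM and Aldh1a2 at 0.0675 to 0.650 TPM, the last 2 with overlapping ranges.

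**Figure D1:**
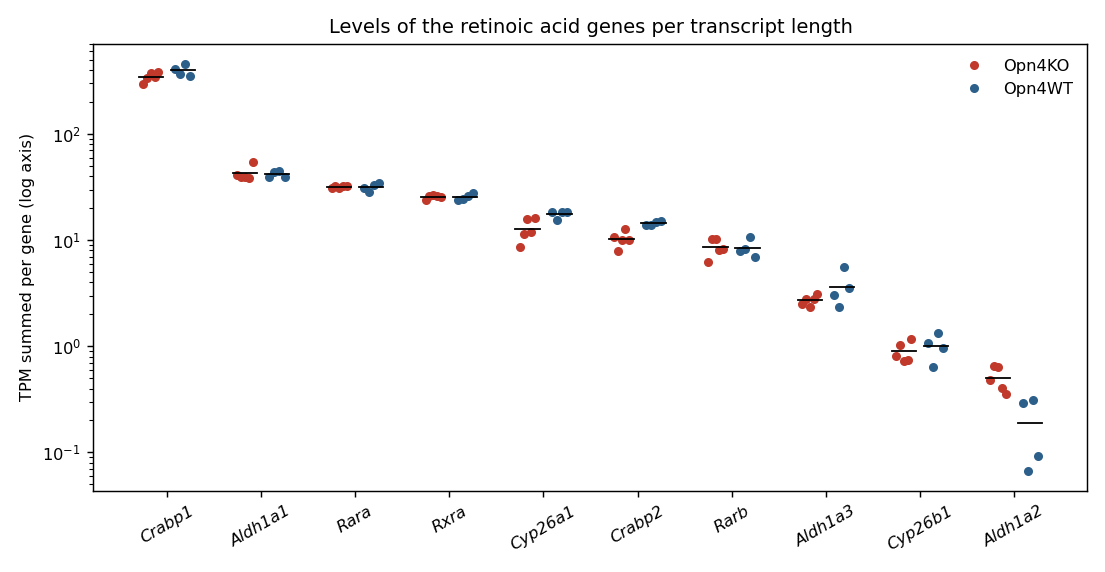
Levels of the 10 genes in TPM (log axis), with 1 point per pool, Opn4KO in red left of Opn4WT in blue, and black bars at the group means. Crabp1 lies above 298 TPM in every pool, the other genes at or below 53.9 TPM, and Aldh1a2 at or below 0.650 TPM.

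Crabp2 was the single gene of the 10 that passed the edgeR test between the genotypes, and it was lower in knockout. DESeq2 called Aldh1a3 and Cyp26a1 as well, where it called 1487 genes, 8.7% of the 17093 to which it gave an adjusted p and 4.31% of the 34490 with any count. Over all 21150 genes tested, 3.59% passed in either direction and 2.25% in the downward one by edgeR (threshold 0.05 on the adjusted p), and no test over the 10 genes together was made. Unadjusted p under 0.05 was reached by 4 of the 10 genes (Crabp2, Aldh1a3, Cyp26a1 and Crabp1), all lower in knockout, and by 16.5% of all genes. The median log2 fold change, knockout minus wildtype, was -0.10 over the 10 genes and 0.00 over all genes tested, with 4 positive and 6 negative values among the 10. In whole retina, fewer cells of a type and less RNA per cell cannot be told apart.

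Transcripts of synthetic enzymes were mostly Aldh1a1, and its levels overlapped between the genotypes. Aldh1a1, the retinal dehydrogenase of dorsal retina (chromosome 19, 20492715 to 20643465, plus strand, GRCm38), measured 46.8, 44.4, 43.0, 42.8 and 59.3 CPM in knockout pools 1 to 5, against 43.5, 49.4, 47.2 and 44.6 CPM in wildtype pools 1 to 4. Knockout pool 5 stood above all others, and the other knockout pools lay within or just below the wildtype range. The log2 fold change was 0.03 (SE 0.09, 95% interval -0.16 to 0.23, edgeR adjusted p = 0.907), and -0.06 without knockout pool 5. The summed level of 7 other dorsal genes was highest in that pool too, at 455 CPM, where no other pool exceeded 452 CPM. Among them Tbx5, a dorsal transcription factor, was highest there (7.77 CPM against 4.26 to 5.92 CPM elsewhere), while the dorsal gene Tbx2, at 206 CPM, stood below every wildtype pool. The part of dorsal tissue in the Aldh1a1 value was not tested. Of the TPM of all 3 synthetic genes, Aldh1a1 made up 92.9 ± 0.725% in knockout and 91.7 ± 2.69% in wildtype (SD, n = 5 and 4). In position it overlaps C730002L08Rik and the pseudogene Gm6684 on the opposite strand, and the use of strand in counting was not given in the sources used here.

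Aldh1a3, the retinal dehydrogenase of ventral retina (chromosome 7, 66390890 to 66427517, minus strand), had the largest negative estimate of the 10 without passing the test. Knockout pools 1 to 5 held 3.28, 2.35, 2.63, 3.53 and 3.43 CPM, against 3.35, 3.69, 8.03 and 5.34 CPM in wildtype pools 1 to 4. Wildtype pools 3 and 4 stood high, wildtype pool 2 lay just above the knockout pools and wildtype pool 1 within their range. The log2 fold change was -0.74 (SE 0.23, 95% interval -1.25 to -0.24, edgeR adjusted p = 0.112), and -0.44 (adjusted p = 0.305) without wildtype pool 3. The summed level of 7 other ventral genes was 341 CPM in wildtype pool 3, below the 354 CPM of wildtype pool 4 and above the 286 to 339 CPM of the other pools, and Vax2, a ventral transcription factor, was highest in wildtype pool 3 (31.6 CPM against 21.4 to 28.4 CPM elsewhere). Wildtype pool 3 was also the pool with the most globin. The part of either in the difference was not tested. In gene-summed TPM the genotypes lay closer, at 2.71 ± 0.305 TPM in knockout and 3.61 ± 1.39 TPM in wildtype (limma adjusted p = 0.516). Of its 5 transcripts the most abundant, with 55.03% of the TPM, held 0.984 to 1.48 TPM in knockout and 1.52 to 3.66 TPM in wildtype, ranges that did not overlap, as in 2.21% of the 46892 transcripts with a mean of at least 1 TPM in that direction. The other Aldh1a3 transcripts overlapped in range. Of them, 2 minor ones averaged higher in knockout, each through a single knockout pool, with every other knockout pool listed at 0. The first averaged 0.22 TPM in knockout, all from knockout pool 2, and 0.11 TPM in wildtype, all from wildtype pool 1. The second averaged 0.30 TPM in knockout, all from knockout pool 5, and every wildtype pool was listed at 0. A shorter, near-identical copy, Gm47551, held at most 2 counts in any pool.

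Aldh1a2, the retinal dehydrogenase best known from embryonic mesoderm, was barely detected, and the deposited tables gave different pictures of it. It had 25, 17, 0, 17 and 0 counts in knockout pools 1 to 5, against 11, 0, 24 and 6 counts in wildtype pools 1 to 4, where a count of 0 allows up to 3 counts (0.0348 to 0.0461 CPM, counting error only). The counts overlapped, with a log2 fold change of 0.32 and an interval from -1.95 to 2.60 (SE 1.05, edgeR adjusted p = 0.925). In TPM the same pools held 0.482, 0.650, 0.632, 0.406 and 0.357 in knockout, against 0.290, 0.0675, 0.314 and 0.0930 in wildtype, so every knockout pool lay above every wildtype pool. The share of all genes with TPM ranges apart in this direction was not counted, and by CPM it was 3.92%. Without a filter, limma on log2(TPM + 0.5) gave a difference of 0.55 (adjusted p = 0.180). The authors' deposited table listed a log2 difference of 1.496 (SE 0.45, p = 0.000909, q = 0.0557), the largest for any of the 10 genes there. Knockout pools 3 and 5, with no counts, had 0.632 and 0.357 TPM. The source of this difference between the tables was not tested. At these levels the direction cannot be stated from the counts.

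Of the degrading enzymes, Cyp26a1 carried nearly all the transcript, and its estimate was negative without passing the test. Cyp26a1 (chromosome 19, 37697798 to 37701536, plus strand) made up 93.2 ± 1.74% of the TPM of Cyp26a1 and Cyp26b1 in knockout and 94.7 ± 1.15% in wildtype (SD, n = 5 and 4). It measured 7.28, 10.1, 12.5, 9.94 and 13.9 CPM in knockout pools 1 to 5, against 15.9, 12.3, 15.3 and 16.2 CPM in wildtype pools 1 to 4. Knockout pool 1 was lowest, and knockout pools 3 and 5 reached above wildtype pool 2, so the groups overlapped. The log2 fold change was -0.47 (SE 0.16, 95% interval -0.81 to -0.14, edgeR adjusted p = 0.129). DESeq2 called it (adjusted p = 0.0276), as did edgeR without knockout pool 5 (log2 fold change -0.59, adjusted p = 0.0422). Without knockout pools 1 and 2 the log2 fold change was -0.30 (adjusted p = 0.311). Both Cyp26a1 transcripts were lower on average in knockout, at 10.8 ± 2.68 TPM against 14.3 ± 2.07 TPM in wildtype for the first and at 2.06 ± 0.682 TPM against 3.44 ± 0.566 TPM in wildtype for the other, with overlapping ranges.

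Cyp26b1, a related retinoic acid hydroxylase, was low, at 1.87, 2.38, 1.60, 1.49 and 2.40 CPM in knockout pools 1 to 5, against 1.97, 1.58, 3.15 and 2.14 CPM in wildtype pools 1 to 4. The groups overlapped throughout, with a log2 fold change of -0.18 (SE 0.22, 95% interval -0.65 to 0.29, edgeR adjusted p = 0.753). Summed TPM of the synthetic genes divided by that of Cyp26a1 and Cyp26b1, without Cyp26c1, came to 3.45 ± 0.748 in knockout and 2.45 ± 0.346 in wildtype. The ratio ran from 2.58 to 4.65 in knockout and from 2.15 to 2.91 in wildtype, ranges that overlapped. Synthesis summed to 45.8 ± 6.53 TPM in knockout and 45.5 ± 3.65 TPM in wildtype. Cyp26a1 and Cyp26b1 summed to 13.7 ± 3.25 TPM in knockout and 18.7 ± 1.84 TPM in wildtype.

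**Figure D2:**
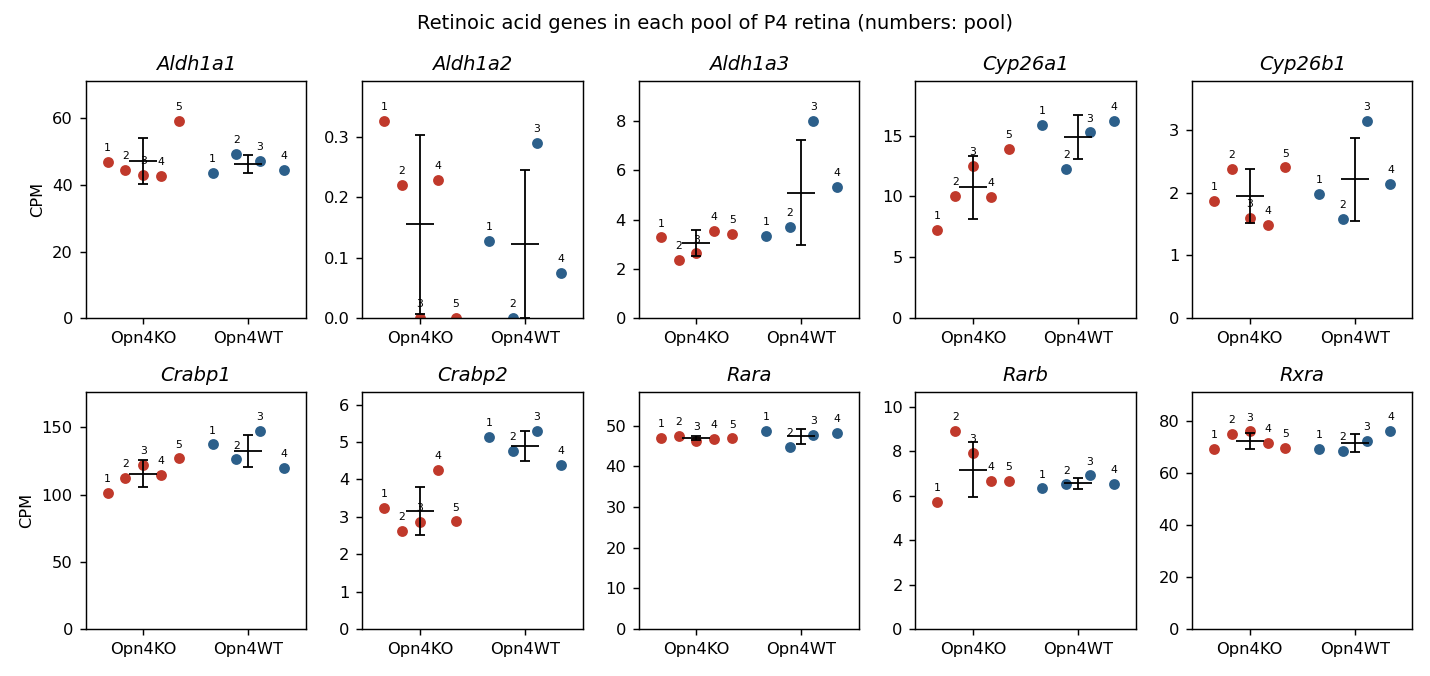
CPM of each gene in every pool, Opn4KO (red, 5 pools) left of Opn4WT (blue, 4 pools), with the pool number above each point and black bars for mean and SD. Crabp2 is the only panel in which the groups do not overlap, and knockout pool 5 stands apart in Aldh1a1.

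The binding proteins were both lower in knockout on average, and Crabp2 passed the test. CRABP2 carries retinoic acid to nuclear receptors, and its gene lies on chromosome 3 (87948666 to 87953376, plus strand). Crabp2 measured 3.23, 2.63, 2.86, 4.25 and 2.88 CPM in knockout pools 1 to 5, against 5.14, 4.77, 5.29 and 4.395 CPM in wildtype pools 1 to 4. The groups did not overlap, although knockout pool 4 came within reach of wildtype pool 4. Among all tested genes 4.37% had CPM ranges that did not overlap with knockout lower, and 8.29% had ranges apart in either direction. The mean was 3.17 ± 0.643 CPM in knockout and 4.90 ± 0.401 CPM in wildtype (SD, n = 5 and 4), 64.7% of the wildtype level. The log2 fold change was -0.63 (SE 0.15, 95% interval -0.94 to -0.31, edgeR adjusted p = 0.0308), which ranked 596 by p among 21150 genes.

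The estimate for Crabp2 moved little between settings, but the adjusted p lay close to the threshold. Leaving out 1 pool at a time gave log2 fold changes of -0.76 to -0.57 and adjusted p from 0.00631 to 0.0941. The call remained without knockout pool 4 and without wildtype pool 4, and was lost without any of the other 7 pools (adjusted p = 0.055 to 0.0941). Without knockout pools 1 and 2 the log2 fold change was -0.56 (adjusted p = 0.132). In TPM Crabp2 held 10.8, 7.95, 10.04, 12.8 and 10.1 in knockout pools 1 to 5, against 13.8, 13.9, 14.9 and 15.2 in wildtype pools 1 to 4, again with no overlap, which held for 3.97% of genes in that direction. The TPM difference was -0.48 on the log2(TPM + 0.5) scale (SE 0.11, limma adjusted p = 0.0646), where 2.16% of 15295 genes were called. The authors' deposited table listed a log2 difference of -0.40 (SE 0.15, q = 0.161), and 1.46% of its genes had a q under 0.05.

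Crabp1, the more abundant carrier (chromosome 9, 54764748 to 54773110, plus strand), went the same way by a smaller amount. It measured 101, 113, 122, 115 and 127 CPM in knockout pools 1 to 5, against 137, 126, 147 and 119.9 CPM in wildtype pools 1 to 4. Knockout pools 3 and 5 reached above the lowest wildtype pool, and wildtype pool 3 was highest. The log2 fold change was -0.20 (SE 0.07, 95% interval -0.35 to -0.04, edgeR adjusted p = 0.169), and -0.15 (adjusted p = 0.372) without wildtype pool 3. The ratio of Crabp1 to Crabp2 TPM was 34.4 ± 6.91 in knockout and 27.5 ± 3.31 in wildtype, with overlapping ranges.

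**Figure D3:**
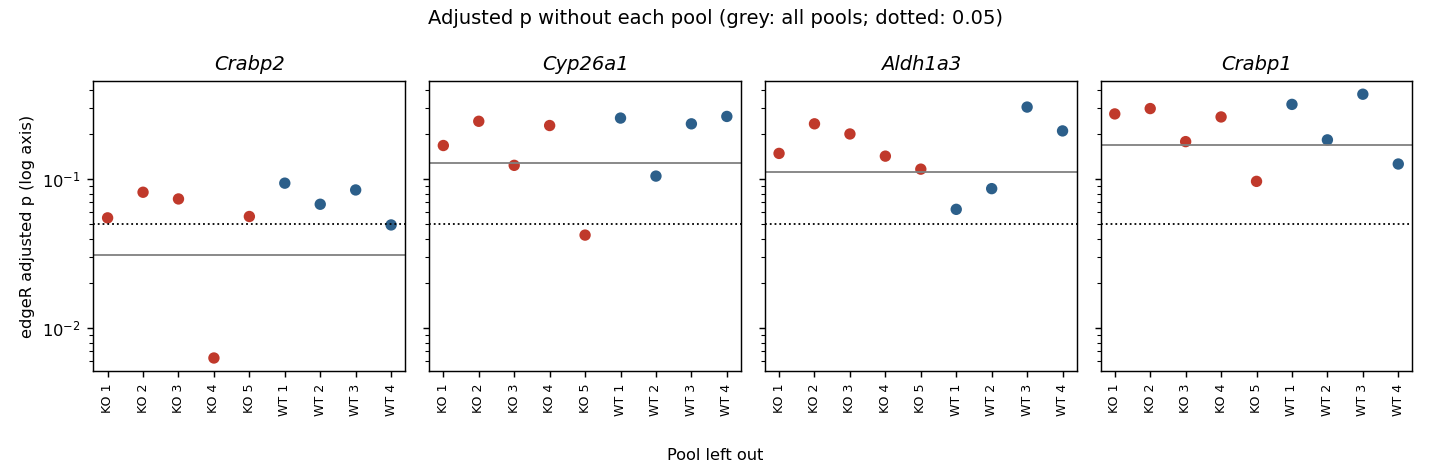
edgeR adjusted p (log axis) of the 4 genes with an unadjusted p under 0.05 after leaving out each pool in turn (knockout red, wildtype blue), with the value over all pools as a grey line and 0.05 dotted. For Crabp2 7 of 9 points lie above 0.05, for Cyp26a1 the point without knockout pool 5 lies below it, and no point of Aldh1a3 or Crabp1 does.

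None of the 3 receptors passed the test with edgeR or DESeq2, and none had an unadjusted p under 0.05. Rara, the RAR alpha gene (chromosome 11, 98927818 to 98974942, plus strand), measured 47.0, 47.6, 46.2, 46.8 and 46.9 CPM in knockout pools 1 to 5, against 48.6, 44.8, 47.8 and 48.2 CPM in wildtype pools 1 to 4. The genotypes differed by -0.01 on the log2 scale (SE 0.04, 95% interval -0.11 to 0.08, edgeR adjusted p = 0.920). The direction of so small a difference turned in gene-summed TPM. Rxra, which encodes the RXR alpha partner (chromosome 2, 27676440 to 27762957, plus strand), had 69.2 to 76.0 CPM in knockout and 68.5 to 76.1 CPM in wildtype, with a log2 fold change of 0.01 and an interval of -0.09 to 0.12 (edgeR adjusted p = 0.925).

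Rarb, the RAR beta gene whose promoter is printed above, is itself a target of retinoic acid. It measured 5.71, 8.91, 7.92, 6.68 and 6.67 CPM in knockout pools 1 to 5, against 6.34, 6.51, 6.92 and 6.53 CPM in wildtype pools 1 to 4. The knockout pools spread on both sides of the tight wildtype range. The log2 fold change was 0.13 (SE 0.12, 95% interval -0.14 to 0.39, edgeR adjusted p = 0.680). Rarb (chromosome 14, 16430839 to 16819156, minus strand) lies 17.8 Mb from Opn4 on the same chromosome. It overlaps Top2b and the antisense gene Gm48162 on the opposite strand, of which Gm48162 held at most 5 counts in a pool. Top2b held 33231 to 41592 counts a pool, against 437 to 689 for Rarb. The use of strand in counting was not given, and the part of Top2b reads in the Rarb values was not tested. The other gene with a DR5 in its promoter, Cyp26a1, had a log2 fold change of -0.47, so the estimates for both differed in sign.

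In all, 31 genes of 27025 had a DR5 in a RefSeq promoter window, Rarb and Cyp26a1 included. Of these, 17 were in the count table under the same symbol and 9 had enough counts to be tested. None of the 9 passed with edgeR, while Cyp26a1 had an unadjusted p under 0.05 and was called by DESeq2. Of the 9 log2 fold changes 7 were negative, as were 10484 of the 21150 over all genes tested. The median was -0.33 for the 9, against 0.00 over all genes. Mean levels of the 9 ran from 0.440 to 12.6 CPM and the SE of their log2 fold changes from 0.11 to 0.34. No test over these genes together was made.

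**Figure D4:**
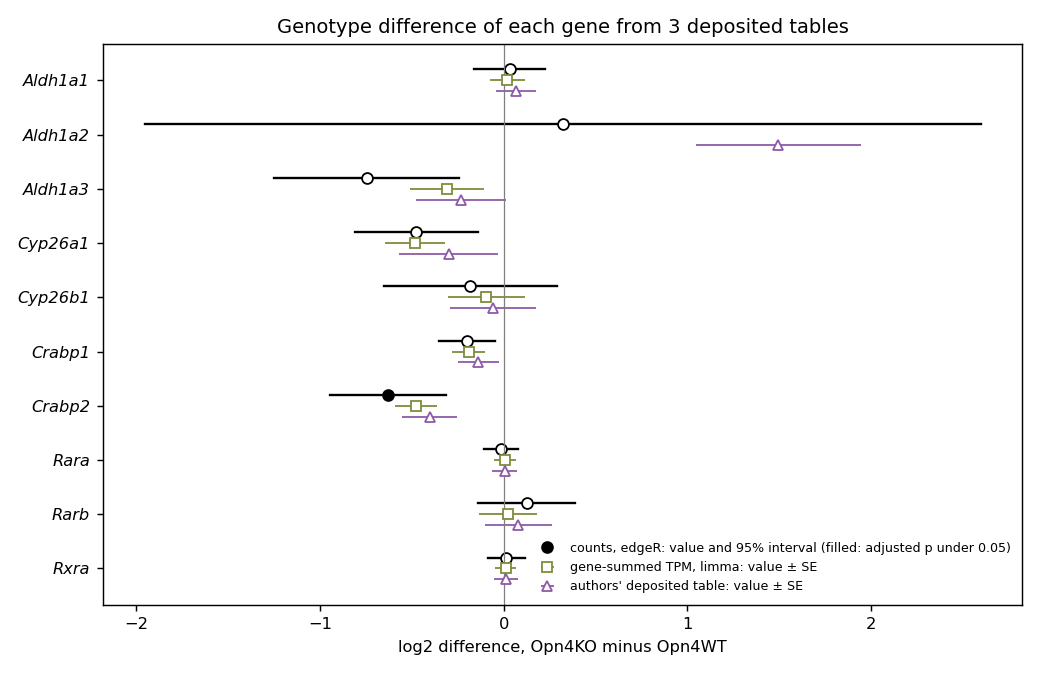
Log2 difference, knockout minus wildtype, of each gene from the counts (circles, edgeR, bars 95% interval, filled where adjusted p is under 0.05), the gene-summed TPM (squares, limma, bars SE) and the authors' deposited table (triangles, bars SE). The counts and the authors' table differ most for Aldh1a2, at 0.32 and 1.496, and Crabp2 is the only filled circle.

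Around these genes, 9 lists of the pathway and of the retinal axes held 97 further genes, of which 83 were tested. Of the 83, 2 passed the test with knockout higher and 2 with knockout lower, against 1.34% higher and 2.25% lower among all genes. The median log2 fold change was -0.02, with 39 positive and 44 negative values. Unadjusted p under 0.05 was reached by 28 of the 83 with edgeR, against 16.5% of all genes tested.

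No gene of retinol uptake and storage passed with edgeR or DESeq2, with a median log2 fold change of -0.11 over 8 tested genes and 1 unadjusted p under 0.05. Among the most abundant were Dgat1, which can esterify retinol (46.0 TPM over all pools), and transthyretin, Ttr, a partner of the retinol carrier in blood (25.9 TPM). Among 11 genes that interconvert retinol and retinal none passed with edgeR (median -0.02), 2 had an unadjusted p under 0.05, and DESeq2 called Rdh10. Here the dehydrogenase Adh5 (165 TPM), the aldo-keto reductase Akr1b3 (48.9 TPM) and Rdh10, the main retinol dehydrogenase of the embryo (37.1 TPM), led. Rdh10 averaged 74.5 ± 2.52 CPM in knockout pools, against 67.1 ± 3.35 CPM in wildtype pools (SD, n = 5 and 4; log2 fold change 0.15, edgeR adjusted p = 0.0957).

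Of the other genes of breakdown and transport, none of 3 passed with edgeR, all 3 had an unadjusted p under 0.05, and DESeq2 called Cyp26c1. Cyp26c1, another degrading enzyme encoded 4.4 kb from Cyp26a1 in the same orientation, was the nearest to doing so. It measured 1.52, 1.5002, 2.46, 2.63 and 2.91 CPM in knockout pools 1 to 5, against 3.597, 3.50, 4.17 and 3.09 CPM in wildtype pools 1 to 4. The groups did not overlap, as for 4.37% of all genes with knockout lower (log2 fold change -0.70, SE 0.21, edgeR adjusted p = 0.0868). Knockout pools 1 and 2 were the lowest, and without them the log2 fold change was -0.43 (edgeR adjusted p = 0.216). These pools held the most lens transcripts, and also the lowest progenitor and the highest rod sums given below. The part of any of these in the Cyp26c1 values was not tested. Fabp5, a fatty acid binding protein that also carries retinoic acid (331 TPM), had a log2 fold change of -0.19 (adjusted p = 0.156), and Por, the reductase that supplies cytochromes P450 with electrons, stood at 67.4 TPM.

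Among 12 tested nuclear receptors that pair or compete with these, 1 was higher by edgeR and 4 had an unadjusted p under 0.05. Ppard, the lipid-sensing receptor PPAR delta and a partner of RXR, measured 48.8, 49.6, 45.0, 47.3 and 45.0 CPM in knockout pools 1 to 5, against 41.3, 38.7, 40.3 and 41.0 CPM in wildtype pools 1 to 4. The groups did not overlap, as for 3.92% of all genes with knockout higher (log2 fold change 0.23, SE 0.05, edgeR adjusted p = 0.0215), and the call was lost without knockout pool 2 or 4 or wildtype pool 1, 2 or 4 (adjusted p up to 0.081), and without knockout pools 1 and 2 together (0.148). The authors' deposited table listed a log2 difference of 0.20 (q = 0.235) for Ppard. The most abundant of this list were the thyroid hormone receptor Thra (454 TPM), the oxysterol receptor Nr1h2 (81.4 TPM) and Rxrb (64.4 TPM).

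Of 18 tested coregulators of these receptors 15 had a positive log2 fold change, as did 10666 of the 21150 genes tested. The median of the 18 was 0.09, 5 had an unadjusted p under 0.05, and 1 passed. Nrip1, a corepressor that binds liganded receptors and is itself induced by retinoic acid in cell lines, measured 108, 105, 99.4, 103 and 102 CPM in knockout pools 1 to 5, against 90.7, 91.2, 79.6 and 91.2 CPM in wildtype pools 1 to 4. Every knockout pool lay above every wildtype pool, as for 3.92% of all genes (log2 fold change 0.23, SE 0.05, edgeR adjusted p = 0.0165). The call held without any 1 pool (adjusted p up to 0.047), though not without knockout pools 1 and 2 together (0.0856), and the authors' deposited table listed a log2 difference of 0.35 (q = 0.00183). The corepressor Ncor1 (192 TPM) and the coactivator-binding protein Cited2 (139 TPM) were among the most abundant of the list.

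Among 16 tested target genes 1 was higher (Nrip1) and 1 lower, with 8 positive and 8 negative values and a median of -0.02. Of the 16, 7 had an unadjusted p under 0.05. Tgm2, the tissue transglutaminase and a classical retinoic acid target, measured 5.67, 6.76, 8.64, 6.76 and 9.05 CPM in knockout pools 1 to 5, against 10.1, 10.5, 13.4 and 10.5 CPM in wildtype pools 1 to 4. The groups did not overlap, as for 4.37% of all genes with knockout lower (log2 fold change -0.59, SE 0.14, edgeR adjusted p = 0.0316). The call remained without knockout pool 3 or 5 and was lost without any of the other 7 single pools (adjusted p up to 0.0986), and without knockout pools 1 and 2 together (log2 fold change -0.45, adjusted p = 0.132). For Tgm2 the authors' deposited table listed a log2 difference of -0.45 (q = 0.376). Meis2 (193 TPM), Btg2 (193 TPM) and Meis1 (57.2 TPM), a homeobox pair and an antiproliferative gene, were the most abundant targets. Of the targets that act on retinoids, Stra6, Dhrs3 and Cyp26c1 among them, none passed with edgeR, and DESeq2 called Cyp26c1.

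**Figure D5:**
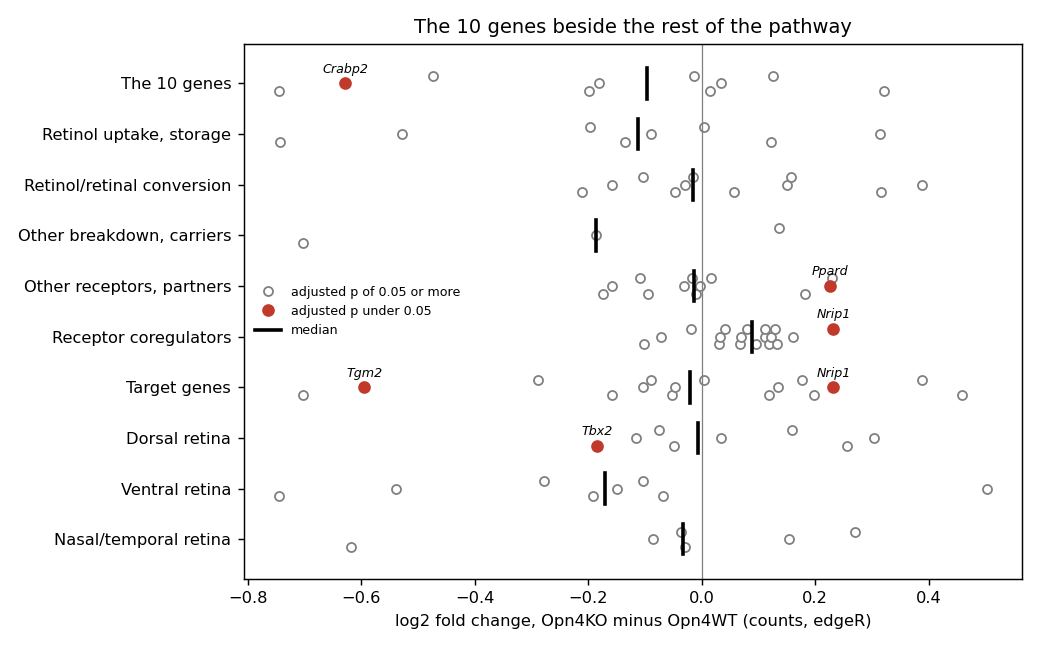
Log2 fold change, knockout minus wildtype, of every tested gene of the 10 and of 9 further lists (edgeR on counts), with called genes red and named and list medians as black bars. Nrip1 stands in both the coregulator and target lists, Aldh1a1 in the dorsal and Aldh1a3 in the ventral list, and the medians run from -0.19 to 0.09.

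Since Aldh1a1 and Aldh1a3 mark opposite poles of the eye, the genes of the retinal axes were read beside them. Of 8 dorsal genes, Aldh1a1 included, Tbx2 was lower and none higher (median -0.01), with 4 at an unadjusted p under 0.05, of which Tbx5, Efnb2 and Unc5b had positive log2 fold changes (0.30, 0.16 and 0.26). Tbx2, a dorsal T-box repressor, measured 184, 191, 191, 206 and 206 CPM in knockout pools 1 to 5, against 217, 219, 236 and 217 CPM in wildtype pools 1 to 4 (log2 fold change -0.18, SE 0.05, edgeR adjusted p = 0.0489). Its call remained without knockout pool 5 and was lost without any of the other 8 single pools (adjusted p up to 0.126), without knockout pools 1 and 2 together (0.198) and with RLE in place of TMM scaling (0.0538). The authors' deposited table listed a log2 difference of -0.17 (q = 0.143) for Tbx2. Of 8 ventral genes, Aldh1a3 included, 7 had negative values, as did 10484 of the 21150 genes tested. The median of the 8 was -0.17, none passed with edgeR, 3 had an unadjusted p under 0.05, and DESeq2 called Aldh1a3. Ephb2 (65.3 TPM), Vax2 (44.0 TPM) and Ephb3 (15.7 TPM) led the ventral list, Tbx2 (103 TPM), Aldh1a1 and Efnb2 (37.9 TPM) the dorsal one. None of 6 nasal and temporal genes passed with edgeR (median -0.03), 3 had an unadjusted p under 0.05 and DESeq2 called Foxd1 and Epha7. Of them Epha5 (60.8 TPM), Efna2 (28.1 TPM) and Efna5 (9.41 TPM) were the most abundant.

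Of those of the 10 genes with a mean above 5 CPM, Cyp26a1 and Rarb varied most over the 9 pools, with an SD of 0.38 and 0.19 on the log2 CPM scale. The genes whose centred profile came nearest to that of Cyp26a1, among 12489 compared, were Zbtb42, Cdca7, Clic1, Etv5 and Tgm2, with root mean square differences of 0.131 to 0.168 in log2 CPM, where the median gene stood at 0.373. Their log2 fold changes were -0.47, -0.56, -0.42, -0.40 and -0.59 in that order, and all but Zbtb42 passed the test (edgeR adjusted p = 0.00514 to 0.0497). The nearest to Rarb were Gcsh, Bag2, Cradd, Hs3st1 and Pla2g15, at 0.0887 to 0.103 against a median of 0.202, and their log2 fold changes lay between 0.01 and 0.13. These are descriptions, since all profiles were read from the same 9 libraries and the pools differ in genotype. The neighbours were picked for likeness over both genotypes, so log2 fold changes near that of the member, and calls with them, follow from the choice. Over all genes tested 3.59% passed.

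Marker genes of several cell types moved with the genotypes as well. The counts of called genes below stand beside 1.34% of all genes tested called higher by edgeR and 2.25% lower. The summed level of 12 progenitor and cell cycle genes was 1923 to 2404 CPM in knockout and 2963 to 3054 CPM in wildtype, with 9 of 12 lower and 1 higher (edgeR). Knockout pools 1 and 2 were the lowest, at 1923 and 1962 CPM. The sum of 10 rod genes was 3209 to 4574 CPM in knockout and 2714 to 3039 CPM in wildtype, with 8 higher. Here knockout pools 1 and 2 were the highest, at 4574 and 4442 CPM. Sums of 12 amacrine genes overlapped, at 1969 to 2149 CPM in knockout and 2099 to 2211 CPM in wildtype. Of these 12 genes 3 were called lower, and the median log2 fold change was -0.05. Another 2 lay higher in every knockout pool than in any wildtype pool, as did 3.92% of all genes. The 7 red blood cell genes summed to 74.0 to 99.6 CPM in knockout and 110.5 to 336.5 CPM in wildtype, with 5 lower and all 7 estimates negative (median log2 fold change -1.25). Of 10 Müller glia genes 2 were higher (Rlbp1 and Car14) and 1 lower (Dapl1), and their sum was 1196 to 1402 CPM in knockout and 1188 to 1355 CPM in wildtype. Of 9 tested lens genes 2 crystallins were higher (Cryaa and Cryab), with the sum over 11 genes at 11.5 to 23.1 CPM in knockout and 9.82 to 11.2 CPM in wildtype. The lens excess lay mainly in knockout pools 1 and 2 (23.1 and 19.6 CPM), while knockout pools 3 to 5 held 11.5 to 12.5 CPM. Cryaa measured 4.65, 3.28, 0.200, 0.0939 and 0.737 CPM in knockout pools 1 to 5, against 0.0812 to 0.124 CPM in wildtype. No gene of the endothelium or of the ciliary margin and iris was called by edgeR or DESeq2, with 1 unadjusted p under 0.05 in each list. Markers of the pigment epithelium, a tissue that also handles retinoids, summed to 60.6 to 110.0 CPM in knockout and 78.8 to 102.7 CPM in wildtype, with none of 12 called by edgeR, 1 at an unadjusted p under 0.05 and 1 called by DESeq2, and Rpe65 was at or below 0.401 CPM in every pool. Choroid and fibroblast genes, of which Lum was at 0 in all pools, summed to 224 to 366 CPM in knockout and 267 to 355 CPM in wildtype, with none called by either tool and 1 at an unadjusted p under 0.05. The part of cell type shares or of blood in the values of Crabp2, Cyp26a1, Tgm2 and the other genes above was not tested.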

How the data were processed

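The 10 genes and all lists were chosen with earlier results of these data known. Reads were trimmed with Trimmomatic 0.39 and quantified with kallisto 0.46.1 on GRCm38, and sleuth 0.30.8 compared the genotypes (source: the submitters' processing notes). The authors deposited raw counts per gene symbol, whose counting program and use of strand are not given in the sources used here, so antisense or multiply matched reads may be credited to either gene. They also deposited a TPM signal per transcript, summed here per symbol; its column sums of 953963 to 1083980 show a rescaling that is not described, and 1673 entries without a symbol and 188 named by digits alone were left out. The third deposited table holds a p-value and a q-value for each gene and an effect on the natural log scale, positive where wildtype is higher, converted here to log2, knockout minus wildtype.

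Counts were tested with edgeR 4.0.16 in R 4.3.3 (filterByExpr, TMM scaling, quasi-likelihood F test, two-sided, Benjamini-Hochberg over 21150 genes, threshold 0.05) with genotype alone, since the labels name no batch or pairing. Same-numbered pools did not deviate together (correlations -0.0307 to 0.00614). That check covers pool numbers only and cannot show whether pools of the 2 genotypes shared litters in another order. CPM use TMM-scaled library sizes. For genes that reached 1 TPM in 4 or more pools, limma 3.58.1 was run on log2(TPM + 0.5), which understates changes of low genes. DESeq2 1.42.0, other scalings and filters, a replicate block and leaving pools out were alternatives. The tests were checked on simulated data. None of the 36 pairs of pools matched within sampling noise if each count is 1 fragment (chi-square per degree of freedom 11.4 to 82.0). Pools of a genotype held different animals, so p-values measure spread between pools. Near-identical copies were sought with BLAST 2.17.0 (95% identity over 50% of the shorter transcript). Text outside the 10 genes names list genes that passed and up to 3 per list with the highest TPM, and for likeness the 5 genes nearest to each of 2 members with a mean CPM of at least 5. Stra6, Dhrs3, Foxd1, Vax1, Epha7, Meis1, Nr2f1, Tbx5, Unc5b, Vax2, Rpe65, Lum, Hbb-bs, Rlbp1, Car14, Dapl1, Cryaa and Cryab were named after their values were seen. A few list genes that this rule would name are not reported here.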

Additional observations from a re-analysis of the deposited data

Results flagged for a closer look

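Aldh1a1 in knockout pool 5 stood far from the other pools of its genotype, at 59.3 CPM, against 46.8 CPM in the next highest knockout pool and 42.8 CPM in the lowest. The gap made up 0.754 of the range of the 5 pools, above the critical value of 0.71. It was the only pool to do so among 20 groups of pools examined (10 genes in 2 genotypes), where chance gives about 1 in 20. In TPM the same pool held 53.9, where the remaining knockout pools held 38.9 to 40.8 and the wildtype pools 38.9 to 44.4. Without it the log2 fold change of Aldh1a1 was -0.06 (edgeR adjusted p = 0.628) in place of 0.03.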

How the results depend on the processing

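Over 20 alternatives the log2 fold changes of Crabp2 (-0.76 to -0.46), Aldh1a3 (-0.91 to -0.27), Cyp26a1 (-0.60 to -0.30), Crabp1 (-0.25 to -0.13) and Rarb (0.02 to 0.20) kept their sign, while Crabp2 was called in 6, Cyp26a1 in 3 (DESeq2, the replicate block, without knockout pool 5) and Aldh1a3 in 1 (DESeq2). All pools gave 760 genes (284 higher, 476 lower), 1 of the 10 genes, 4 list genes and a list median of -0.02. DESeq2 called 1487 genes (669 higher, 818 lower), 3 of the 10 and 10 list genes. No low count filter gave 0 of the 10 and 2 list genes (549 genes, 152 higher). Without knockout pools 1 and 2 it was 486 genes (134 higher, 352 lower), 0 of the 10 and 2 list genes. Leaving out 1 pool gave 524 to 859 genes, 0 to 1 of the 10 and 1 to 6 list genes. Gene-summed TPM called 330 genes at a pseudocount of 0.5 (95 higher, 235 lower), 337 at 0.1 (99 higher, 238 lower), 330 at 1 (94 higher, 236 lower) and 194 without a filter (46 higher, 148 lower, list median 0.013), with 0 of the 10 and 0 list genes each. In limma's TPM fit 2 of the 10 had an unadjusted p under 0.05, as did 15.5% of 15295 genes. The alternatives differ in pools, genes tested, test (DESeq2) or table, and the cause of these changes was not tested. Pool number as a replicate block, for which the data gave no pairing, called 888 genes, 1 of the 10 (Cyp26a1, -0.60, adjusted p = 0.0438; Crabp2 -0.62, adjusted p = 0.079) and 6 list genes. Small estimates that were never called turned sign: Aldh1a1 with the block (-0.061) and over single pools left out (-0.064 to 0.068); Aldh1a2 over these (-0.14 to 1.16) and without knockout pools 1 and 2 (-0.70); Cyp26b1 (-0.32 to 0.039) and Rxra (-0.010 to 0.041) over single pools left out. Rara turned in TPM, at 0.0060 with a pseudocount of 0.5, with or without the filter, 0.0061 with 0.1 and 0.0058 with 1. Depth limits Aldh1a2, with at most 25 counts a pool.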

Other observations

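Some genes of the retinoic acid field and of retinal position did not pass with edgeR and were named after their values were seen. Foxd1, a transcription factor of temporal retina, measured 3.44, 3.93, 4.14, 4.24 and 5.28 CPM in knockout pools 1 to 5, against 4.55, 8.08, 7.19 and 6.03 CPM in wildtype pools 1 to 4. Only knockout pool 5 reached into the wildtype range (log2 fold change -0.62, SE 0.17, edgeR adjusted p = 0.0621). Epha7, an ephrin receptor, averaged 18.4 ± 1.69 CPM in knockout pools, against 15.2 ± 1.19 CPM in wildtype pools (log2 fold change 0.27, adjusted p = 0.102). Vax1, a homeobox gene of optic stalk and ventral eye, averaged 1.83 ± 0.421 CPM in knockout pools, against 2.66 ± 0.692 CPM in wildtype pools (log2 fold change -0.54, edgeR adjusted p = 0.227). The CPM ranges overlapped. In TPM Vax1 averaged 5.23 ± 1.53 in knockout and 9.38 ± 1.09 in wildtype, without overlap, as for 3.97% of genes in that direction. The TPM difference was -0.82 on the log2(TPM + 0.5) scale (limma adjusted p = 0.0575). Dhrs3, which reduces retinal back to retinol, held 8.31, 9.62, 6.90, 7.67 and 6.47 CPM in knockout pools 1 to 5, against 5.22, 5.33, 7.06 and 6.22 CPM in wildtype pools 1 to 4, with wildtype pool 3 above the lowest knockout pools (log2 fold change 0.39, adjusted p = 0.151). Meis1, a homeobox target of retinoic acid, and Nr2f1, an orphan receptor (COUP-TFI), lay lower in every knockout pool than in any wildtype pool. By CPM this held for 4.37% of all genes. The log2 fold changes of the pair were -0.16 and -0.17 (edgeR adjusted p = 0.0982 and 0.0923). DESeq2 called both, as it did 8.7% of the genes to which it gave an adjusted p. In TPM the ranges of Meis1 again did not overlap (limma adjusted p = 0.101), while those of Nr2f1 did (limma adjusted p = 0.454).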
